A study of Drosophila melanogaster with 3 samples.

Results

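The proteasome subunit genes are the protein-coding genes of the Ensembl BDGP6 annotation of Drosophila melanogaster whose symbols start with Rpn or Rpt and a number, or with Prosalpha or Prosbeta. There were 48 such genes among 13968 protein-coding genes. By symbol alone, 32 carried only the family name and a number and are called subunit genes here, and 16 carried further letters, such as R or T, and are called paralogs. The study mapped Bab1 (Bric-a-brac 1), which binds DNA through a pipsqueak-type domain and pairs with partners through a BTB domain, in chromatin from whole adult females by chromatin immunoprecipitation and sequencing (ChIP-seq). All 3 biological replicates belonged to 1 group, bab1-RA (bab1-s)-GFP females of unknown age, whose stable transgene encodes Bab1 with GFP at its C-terminal end, and the precipitation used an anti-GFP antibody. What drives the transgene is not given in the sources used here, whole flies mix all tissues, and no untagged flies were analysed here, so Bab1 binding and background of the precipitation cannot be told apart at any peak below. Each replicate list and the pooled list held 30000 peaks, and 6896 of the pooled peaks formed the authors' list of reproducible peaks, set by the irreproducible discovery rate (IDR).

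A peak was given to each gene whose body or 1 kb upstream contained its summit, the point of highest signal. Signal values are the authors' own for each peak and can be compared only within a list, so strength was compared by rank, with rank 1 the strongest peak of its list. The top list of a replicate means its 6896 strongest peaks, as many as the IDR list holds. These lists give no read counts, library depth is therefore unknown, and the number of replicates limits the precision.

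The proteasome degrades proteins tagged with ubiquitin. Its core particle is a barrel in which outer rings of alpha subunits control entry and inner rings of beta subunits hold the proteolytic sites. The regulatory particle caps the barrel: its base contains a ring of ATPases (Rpt) that unfold substrates and push them into the core, together with scaffold subunits and ubiquitin receptors, and its lid removes ubiquitin. Because the subunits assemble in fixed proportions, cells are known to regulate their genes together, in flies through the factor encoded by cnc. Several paralogs of core subunits, those with a T in the symbol among them, are known from Drosophila as testis forms.

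The sequence just upstream of 6 genes is shown to set the letters beside the peaks described below: strong peaks (Rpn2, Rpn3, Prosbeta2), a weaker one with a promoter motif (Prosbeta6), a subunit gene outside the IDR list (Prosalpha2) and a paralog with no peak in any list (Prosbeta2R1). The first 3 and Prosalpha2 follow a rule of strength and alphabet, and Prosbeta6 and Prosbeta2R1 were chosen after their values were seen. Each run ends at the base before the first annotated transcription start site (TSS) of the gene, reads 5′ to 3′ on the gene's strand, and comes from the RefSeq sequence of the dm6 assembly. Capitals mark the DNA replication-related element (DRE, TATCGATA), a site of the factor DREF known at promoters of housekeeping genes. The stretch of Rpn2 (chr3R:29153267-29153523, plus strand, 257 bp) is the whole gap to Slbp, the divergent neighbour, and contains the summit. The stretch of Rpn3 (chr2L:19051613-19051789, plus strand, 177 bp) is the gap to l(2)37Bb and holds 1 sequence of 72 bases as a direct repeat. The summit lay 24 bp downstream of the TSS. DREs of Rpn3 centred at -193 and 80 bp from the TSS lie outside this stretch. The stretch of Prosbeta2 (chr3L:14999667-14999950, plus strand, 284 bp) contains the summit and 2 DREs, centred at -256 and -6 bp from the TSS. The stretch of Prosbeta6 (chr3L:16610419-16610661, minus strand, 243 bp) has a DRE centred at -40 bp, and its summit lay downstream of the TSS. The stretches of Prosalpha2 (chr3R:12431236-12431320, plus strand, 85 bp) and Prosbeta2R1 (chrX:5808664-5808953, plus strand, 290 bp) contained no DRE. The peak of Prosbeta7, which the rule also names, lay wholly downstream of the gene's first TSS, with its summit in an exon, and its sequence is not shown.
Rpn2: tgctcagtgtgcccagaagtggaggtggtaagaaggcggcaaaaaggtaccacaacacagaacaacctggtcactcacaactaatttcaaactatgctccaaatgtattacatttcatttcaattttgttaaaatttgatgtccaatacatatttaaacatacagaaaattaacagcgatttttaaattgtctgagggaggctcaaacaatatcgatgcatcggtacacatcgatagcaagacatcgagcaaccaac
Rpn3: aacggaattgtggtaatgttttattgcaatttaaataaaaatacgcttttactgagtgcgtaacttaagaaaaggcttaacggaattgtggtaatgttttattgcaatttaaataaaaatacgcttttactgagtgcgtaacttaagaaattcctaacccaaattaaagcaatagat
Prosbeta2: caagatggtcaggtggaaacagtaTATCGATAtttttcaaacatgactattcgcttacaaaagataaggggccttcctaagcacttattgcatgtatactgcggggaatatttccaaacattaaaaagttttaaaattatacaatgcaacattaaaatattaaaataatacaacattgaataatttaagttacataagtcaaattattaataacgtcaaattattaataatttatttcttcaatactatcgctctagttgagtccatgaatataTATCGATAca
Prosbeta6: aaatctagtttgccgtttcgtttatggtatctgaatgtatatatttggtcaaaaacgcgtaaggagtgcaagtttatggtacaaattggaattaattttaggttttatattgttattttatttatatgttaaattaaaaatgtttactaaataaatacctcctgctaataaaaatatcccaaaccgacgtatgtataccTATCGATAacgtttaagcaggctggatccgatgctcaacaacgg
Prosalpha2: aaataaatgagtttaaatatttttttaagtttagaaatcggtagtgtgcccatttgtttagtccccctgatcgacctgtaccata
Prosbeta2R1: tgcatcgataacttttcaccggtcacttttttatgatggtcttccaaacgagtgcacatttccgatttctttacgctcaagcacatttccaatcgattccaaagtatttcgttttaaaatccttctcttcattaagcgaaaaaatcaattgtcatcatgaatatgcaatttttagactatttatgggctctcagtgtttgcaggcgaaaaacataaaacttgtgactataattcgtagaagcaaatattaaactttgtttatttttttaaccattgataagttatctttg

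Bab1-GFP peaks lay at most subunit genes and at few paralogs. In the IDR list, 25 of 32 subunit genes (78.1%, exact 95% confidence interval 60% to 90.7%) and 2 of 16 paralogs (12.5%, 1.55% to 38.3%) had a peak, against 6177 of 13968 protein-coding genes (44.2%). Together, 27 of the 48 genes (56.2%, 41.2% to 70.5%) had a peak. Of the 7997 protein-coding genes between 881 and 4500 bp long, the range of the 48 genes, 44.1% had a peak. The intervals (Clopper-Pearson) cover counting error only, and genes are not independent, since 19 of the 25 subunit summits (76%) also fell in the window of another protein-coding gene, against 61.9% over all protein-coding genes with a peak. When a summit was counted only for the gene with the nearest TSS, 18 of 32 subunit genes and 1 paralog had a peak, against 31.5% of protein-coding genes. Within 250 bp of a TSS of the gene, 24 of 32 subunit genes and 2 paralogs had a peak, against 35.9% of protein-coding genes. In gene bodies alone, without the 1 kb upstream, 10 of 32 subunit genes (31.2%) and 1 paralog had one, against 21%, so that the 48 genes together (22.9%) were near the background. When each replicate was left out in turn and both remaining top lists had to hold the IDR summit, 22, 21 and 24 subunit genes had a peak without replicates 1, 2 and 3, against 33.6%, 32.6% and 35% of protein-coding genes. The IDR list itself still drew on all 3 replicates, so these counts could only fall.

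The replicates gave the same picture one by one. In the top lists of replicates 1, 2 and 3, 90.6%, 84.4% and 84.4% of subunit genes had a peak (mean 86.5% ± 3.61, SD, n = 3), and 0%, 6.25% and 12.5% of paralogs (6.25% ± 6.25). All protein-coding genes stood at 42.8%, 43.3% and 42.1% in the same lists. The lowest subunit share exceeded the highest paralog share, and the difference was 80.2 ± 9.55 percentage points (subunit minus paralog, SD, n = 3). The exact two-sided permutation test over the replicates gave p = 0.25, the smallest that 3 replicates allow. The top lists of all 3 replicates held 24 subunit genes (75%) and 0 paralogs, against 33.8% of protein-coding genes.

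Whole lists held nearly every subunit gene. A peak of some strength lay at 31 of 32 subunit genes in each replicate list, the same 31 genes each time, against 65.9%, 65.6% and 66.8% of protein-coding genes in replicates 1, 2 and 3. The exception was Prosalpha1. Across all 3 whole lists, 96.9% of subunit genes and 12.5% of paralogs had a peak throughout, against 60% of protein-coding genes. No replicate list held a peak at 13 paralogs (81.2%), nor at 27.5% of protein-coding genes. The pooled list held 31 subunit genes and 2 paralogs, against 67% of protein-coding genes.

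**Figure D1:**
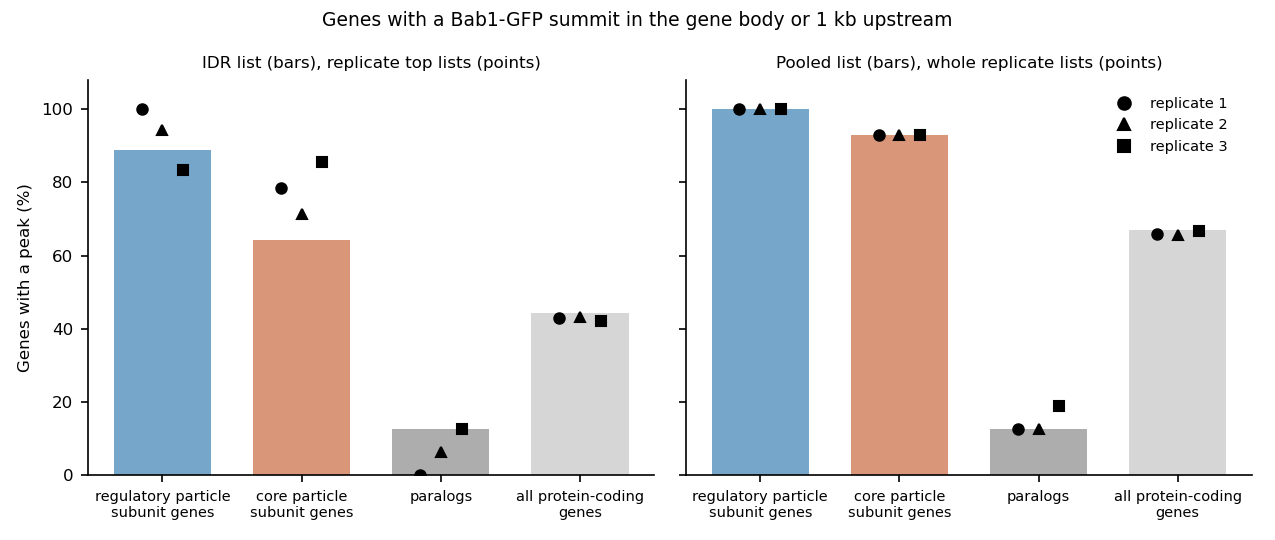
Share of genes (%, y axis) with a Bab1-GFP summit in the gene body or 1 kb upstream, for regulatory particle subunit genes (n = 18), core particle subunit genes (n = 14), paralogs (n = 16) and all protein-coding genes (n = 13968). Bars give the IDR list (left) and the pooled list (right), and the points give replicates 1 to 3 as top lists (left) and whole lists (right). Every replicate places both kinds of subunit genes above all protein-coding genes and the paralogs below them.

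Between the particles, an IDR peak lay at 17 of 23 regulatory genes (73.9%, 51.6% to 89.8%) and at 10 of 25 core genes (40%, 21.1% to 61.3%). Paralogs make up 5 of the 23 regulatory and 11 of the 25 core genes. Among subunit genes alone, a comparison added after the values were seen, a peak lay at 16 of 18 regulatory genes (88.9%, 65.3% to 98.6%) and at 9 of 14 core genes (64.3%, 35.1% to 87.2%). Both were above the 44.2% of all protein-coding genes. Core genes include Prosalpha1 and the paralog Prosalpha1R, whose sequences are repeated elsewhere in the genome (described below). Both count here as genes without a peak. By assembly, the counts were 7 of 8 for the lid, 9 of 10 for the base, 4 of 7 for the alpha ring and 5 of 7 for the beta ring. These counts cover only genes that the symbol rule takes in, so a subunit gene with another kind of symbol is left out.

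Over the replicate top lists, regulatory genes including paralogs had a peak in 75.4% ± 5.02 and core genes in 45.3% ± 6.11, against 42.8% ± 0.605 of all protein-coding genes (SD, n = 3). The core share was thus near that of all protein-coding genes. The difference, regulatory minus core, was 34.3, 38.3 and 17.6 percentage points in replicates 1, 2 and 3 (mean 30 ± 11, exact two-sided permutation p = 0.25, the smallest possible with 3 replicates). For subunit genes the shares were 100%, 94.4% and 83.3% for the regulatory particle (92.6% ± 8.49) and 78.6%, 71.4% and 85.7% for the core particle (78.6% ± 7.14). Prosalpha1 counts in each core share as a gene without a peak, which raises each difference, regulatory minus core, by an amount not computed here. Replicate 3 went against the other 2, with a difference of -2.38 points (regulatory minus core). The mean difference of 14 ± 14.2 points was no larger than its spread between replicates (exact two-sided permutation p = 0.5). It was 22.2 points without replicate 3, 10.3 without replicate 1 and 9.52 without replicate 2. It was 38.9 points in the strongest 3448 peaks of each replicate, where the regulatory share was the higher in all 3 (exact two-sided permutation p = 0.25). In whole lists, all 18 regulatory and 13 of 14 core subunit genes had a peak in each replicate, so the difference of 7.14 points there is Prosalpha1 alone, whose sequence is repeated elsewhere in the genome (described below), and says nothing further of the particles.

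Peaks at regulatory subunit genes had stronger ranks than those at core subunit genes. Among genes with an IDR peak, the strongest peak had a median rank of 2222 of 6896 for regulatory subunit genes and 3210 for core subunit genes, against 2741 for all protein-coding genes with a peak. The strongest 3448 IDR peaks held 15 of 18 regulatory and 5 of 14 core subunit genes, and 0 paralogs, against 26.7% of protein-coding genes. In the whole lists of replicates 1, 2 and 3, the median rank of regulatory subunit genes was 2059.5, 2032 and 2786 (18 genes). That of core subunit genes was 5028, 3735 and 4066 (13 genes), and that of protein-coding genes with a peak was 4601, 4488 and 4803. The regulatory medians were stronger than the core medians in each replicate, and the 2 sets of medians did not overlap. Median gene length was 1762 bp for regulatory and 1201 bp for core subunit genes, and its part in these differences was not tested.

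The strength of these peaks was described by rank within the IDR list. Of the 25 subunit genes with an IDR peak, 7 (28%) had it in the strongest 25% of the list, against 33.2% of all protein-coding genes with a peak. Their median peak was stronger than 67.2% of the IDR list, against 60.3% for all protein-coding genes with a peak. The summit lay in the top lists of all 3 replicates for 21 of the 25 (84%), against 66.5%. Ranks of the 31 subunit genes with a peak in every replicate correlated across genes with Spearman's rho of 0.562 (replicates 1 and 2), 0.561 (1 and 3) and 0.613 (2 and 3). This describes genes within shared libraries, and genes are not replicates.

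**Figure D2:**
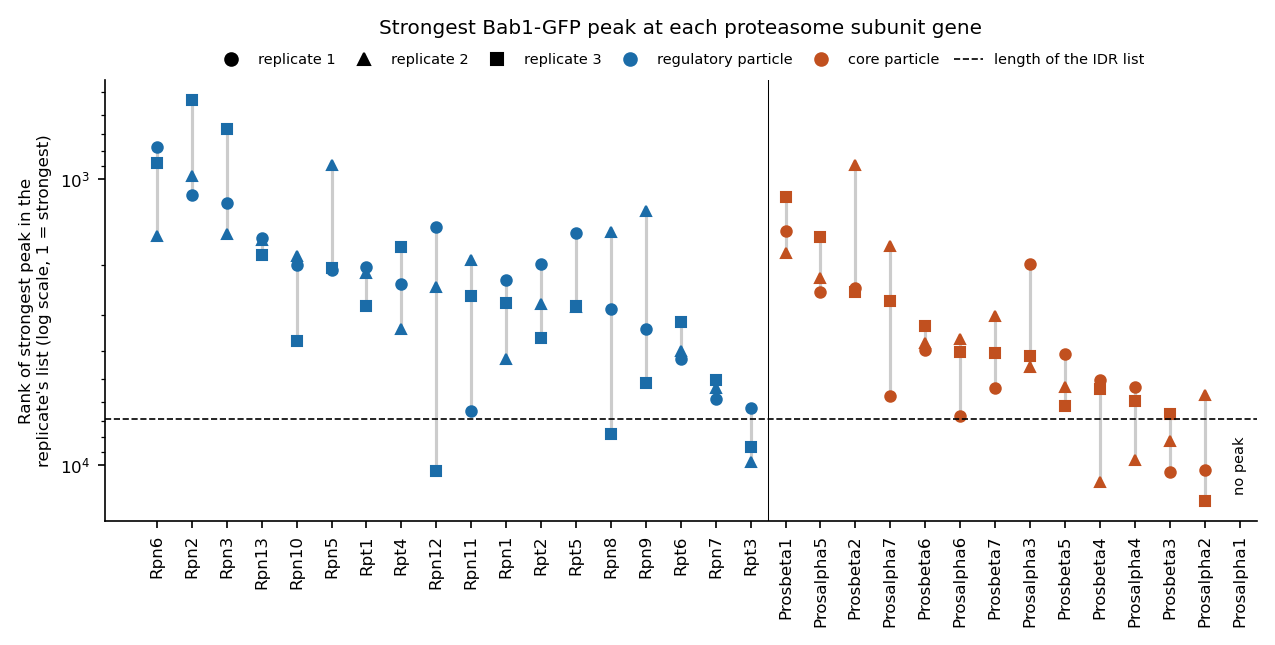
Rank of the strongest peak at each of the 32 subunit genes in the whole list of each replicate (log y axis, strongest at the top), with circles, triangles and squares for replicates 1, 2 and 3, and genes ordered within each particle by their middle rank. Regulatory particle genes are on the left and core particle genes on the right, and the dashed line marks rank 6896. Rpn6, Rpn2 and Rpn3 lead the regulatory genes, most core genes lie lower, and Prosalpha1 has no peak.

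The lid held some of the strongest peaks. Rpn3, Rpn5, Rpn6, Rpn7, Rpn9 and Rpn12 encode its scaffold, built on PCI domains, Rpn11 encodes the metalloprotease that cuts ubiquitin from substrates, and Rpn8 its inactive partner. Rpn3 (FBgn0261396) had an IDR peak on 2L from 19051711 to 19051965 with signal 586 and rank 1048, and its signals in replicates 1, 2 and 3 were 164 (rank 1213), 247 (rank 1558) and 172 (rank 672). Rpn6 (FBgn0028689), whose product also clamps the lid to the core, had a peak on 2R from 14752239 to 14752498 with signal 585 and rank 1057, and signals of 207 (rank 776), 244 (rank 1591) and 151 (rank 883). Both stood among the strongest 1591 peaks of every replicate. Rpn5 (FBgn0028690) had a peak on 3R from 5789008 to 5789331 with signal 556 and rank 1167, and signals of 127 (rank 2088), 326 (rank 893) and 104 (rank 2057). Its summit lay 278 bp upstream of its TSS and nearer to the TSS of the divergent neighbour Hat1, and a second IDR peak (5789334 to 5789481, rank 2813) lay 77 bp upstream of the TSS of Rpn5.

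The other lid genes with an IDR peak held middle ranks: Rpn9 at 2160, Rpn8 at 2283, Rpn11 at 2462 and Rpn12 at 2644. Their replicate ranks spread widely. Rpn12 ranked 1476 and 2385 in replicates 1 and 2 but 10516 in replicate 3, and Rpn8 ranked 2846, 1535 and 7789, so both left the top list of replicate 3. Rpn11 was weakest in replicate 1, at rank 6480 against 1920 and 2578 in replicates 2 and 3. Rpn9 ranked 3337, 1295 and 5189. The IDR summit of Rpn8 lay within an intron, nearest to a TSS of Slik.

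In the base, Rpn2 (FBgn0028692), which encodes a large scaffold subunit that holds the ubiquitin receptor Rpn13, had the strongest peak of all 48 genes. The peak lay on 3R from 29153293 to 29153529 with signal 689.5 and rank 800, and the signals in replicates 1, 2 and 3 were 169 (rank 1138), 313 (rank 977) and 189.9 (rank 533). Its summit lay 130 bp upstream of the TSS of Rpn2 and 128 bp from that of Slbp, which encodes the histone mRNA stem-loop binding protein, so the summit sits at the middle of the shared stretch printed above. Rpn13 itself (FBgn0033886) had its strongest peak on 2R from 13960239 to 13960870 with signal 480.2 and rank 1587, and signals of 144 (rank 1607), 241 (rank 1643) and 109 (rank 1855). Its replicate ranks lay closest together among the 31 subunit genes with a peak in every replicate. The ubiquitin receptor Rpn10 stood at IDR rank 2053, and at 2006, 1869 and 3682 in the replicates. Rpn1, a scaffold that docks ubiquitin shuttles, had rank 3047, and 2265, 4247 and 2723 in the replicates.

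Of the 6 genes of the ATPase ring, 5 had an IDR peak, at ranks 2182 (Rpt1), 2262 (Rpt5), 2499 (Rpt2), 2850 (Rpt4) and 3980 (Rpt6), and each of these 5 summits lay in all 3 top lists and within 250 bp of its own TSS. Across the replicates these 5 genes ranked between 1545 (Rpt5, replicate 1) and 4276 (Rpt6, replicate 1). Rpt3 had no IDR peak and ranked weaker than these 5 in each replicate. A second, weaker IDR peak lay at 3 regulatory genes besides Rpn5 and at no Rpt gene: it ranked 6806 at Rpn10, 6589 at Rpn11 and 4402 at Rpn13.

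In the alpha ring, 4 of 7 genes had an IDR peak. Prosalpha5 (FBgn0016697) led, with a peak on 2R from 17412651 to 17412762, signal 432 and rank 1935, and signals in replicates 1, 2 and 3 of 117 (rank 2494), 207 (rank 2221) and 116 (rank 1601). Its summit lay 8 bp upstream of the TSS. Prosalpha7 (FBgn0023175) had a peak on 2R from 9847798 to 9847983 with signal 416 and rank 2087, and signals of 71.7 (rank 5752), 236 (rank 1724) and 92.4 (rank 2675), so replicate 1 was the weak one. Prosalpha3 stood at IDR rank 3798, and at 1994, 4537 and 4164 in the replicates, where the summit of replicate 3 lay 1212 bp downstream of the TSS and those of the others within 35 bp of it. Prosalpha6 stood at IDR rank 3887, and at 6735, 3617 and 4025 in the replicates. The summit of Prosalpha6 lay 510 bp upstream of the gene and 111 bp from a TSS of Npc1a, the divergent neighbour, which encodes a sterol transporter.

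In the beta ring, 5 of 7 genes had an IDR peak, and all 5 summits lay in all 3 top lists. The catalytic subunits are beta1 (caspase-like), beta2 (trypsin-like) and beta5 (chymotrypsin-like). Prosbeta2 (FBgn0023174) had the strongest core peak, on 3L from 14999717 to 14999989 with signal 540.4 and rank 1225, and signals in replicates 1, 2 and 3 of 119 (rank 2402), 325 (rank 897) and 95.6 (rank 2496). Prosbeta1 (FBgn0010590) had a peak on 2R from 16014750 to 16014961 with signal 487 and rank 1528, and signals of 147 (rank 1529), 230.2 (rank 1813) and 134 (rank 1157). The third catalytic gene, Prosbeta5, had the weakest peak of any subunit gene in the IDR list, at rank 4857, and ranked 4106, 5332 and 6207 in the replicates. Of the genes for subunits without a catalytic site, Prosbeta7 (FBgn0250746) had a peak on 3R from 5358117 to 5358301 with signal 333 and rank 3210, and signals of 74.9 (rank 5381), 177 (rank 3018) and 74.4 (rank 4066). Prosbeta6 had rank 3967, with even replicate ranks of 3963, 3735 and 3272.

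Of the 32 subunit genes, 7 had no IDR peak, and 6 of them had a weaker peak in every replicate list and in the pooled list. Closest to the list's end at rank 6896 came Rpn7, the lid gene, which had a pooled signal of 178 (rank 8077) and replicate signals of 70.5 (rank 5875), 127 (rank 5381) and 65.8 (rank 5040), and was in all 3 top lists. Its summits lay 540, 46 and 510 bp upstream of its TSS in replicates 1, 2 and 3, and the TSS of the divergent gene AP-2mu lies 401 bp upstream, so the replicates did not place 1 common summit. Rpt3, the ATPase gene, had a pooled signal of 165 (rank 8854) and replicate signals of 66.9 (rank 6332), 80.9 (rank 9784) and 46.3 (rank 8638).

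Among core genes, Prosbeta4 had a pooled signal of 174 (rank 8300) and replicate signals of 78.5 (rank 5028), 70.7 (rank 11447) and 62.8 (rank 5425). Prosalpha2 had a pooled signal of 168 (rank 8688) and replicate signals of 44.9 (rank 10424), 122 (rank 5676) and 33.8 (rank 13298). Prosbeta3 had a pooled signal of 162 (rank 9051) and replicate signals of 44.2 (rank 10610), 92.6 (rank 8240) and 55.7 (rank 6624). Each of these genes entered the top list of at least 1 replicate and missed it in at least 1 other. Prosalpha4 did the same, with a pooled signal of 134 (rank 11193) and replicate signals of 75.5 (rank 5326), 82.3 (rank 9599) and 59.4 (rank 5958). Summits of Prosalpha4 lay 35, 369 and 554 bp upstream of its TSS in replicates 1, 2 and 3. The TSS of the divergent gene kat80 lies 90 bp upstream. Summits of Prosbeta4 lay 147 bp downstream, 584 bp upstream and 123 bp downstream, and the TSS of its divergent neighbour Nubp1 lies 417 bp upstream. At neither gene did the replicates place 1 common summit.

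Prosalpha1 was the only subunit gene with no summit in any list. Every stretch of 31 bases in its window (100%) also occurs elsewhere in the genome, and the same holds for the paralog Prosalpha1R, which also lies on 2R. In the other 46 genes this share was at most 3.63%. Of the 364 protein-coding genes in which more than 50% of stretches occur elsewhere, 25 (6.87%) had an IDR peak, against 44.2% of all. How the authors treated reads that match several places is not given in the sources used here, so at Prosalpha1 and Prosalpha1R absence of signal and reads that could not be placed cannot be told apart.

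The paralogs had few and weak peaks. Rpt3R (FBgn0037742) had an IDR peak on 3R from 9756070 to 9756493 with signal 241 and rank 5465, and signals in replicates 1, 2 and 3 of 51.5 (rank 8813), 134 (rank 4975) and 59.1 (rank 6006). Prosbeta2R2 (FBgn0037296) had a peak on 3R from 5219440 to 5219863 with signal 223 and rank 6095, and signals of 57.3 (rank 7730), 97.2 (rank 7751) and 76.8 (rank 3835). Its summit lay 5 bp from the TSS of the divergent gene CG1116 and 124 bp from its own. Both ranks fall near the end of the IDR list, whose lowest signal was 202.

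A further paralog, Rpt6R, had a peak in replicate 3 alone, at rank 27896, and 13 paralogs had none in any replicate. The 16 paralogs are named after 12 subunit genes, of which 8 had an IDR peak. For 10 paralogs the namesake had a peak, and only the pair of Prosbeta2R2 and Prosbeta2 had one at both genes. Rpt3R was the reverse case, with a peak where its namesake Rpt3 had none. Apart from Prosalpha1R, at most 0.644% of the 31-base stretches of any paralog occur elsewhere.

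Summits at subunit genes lay close to the TSS. The median distance from the strongest summit to the gene's own nearest TSS was 44 bp for the 25 subunit genes, against 120 bp for all protein-coding genes with a peak, and 23 (92%) lay within 250 bp, against 71.3%. The exceptions were Prosalpha6 and Rpn5. Subunit genes spanned 914 to 4500 bp, against 168 to 1965857 bp for all protein-coding genes. A longer gene body admits more distant summits, and the part of gene length in these distances was not tested. The nearest TSS belonged to the subunit gene itself in 18 of 25 cases (72%), against 66.7%.

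Many subunit genes share their upstream region with a gene on the other strand. A TSS of the opposite strand lay within 1 kb upstream of 19 of 32 subunit genes (59.4%) and 3 of 16 paralogs (18.8%), against 38.2% of protein-coding genes. At these divergent pairs, 13 of 19 subunit genes (68.4%) had an IDR peak, close to the 68.1% of all divergent protein-coding genes. Without such a neighbour, 12 of 13 subunit genes (92.3%) had a peak, against 29.5% of protein-coding genes. Among the subunit genes with a peak and no divergent neighbour were Rpn6, Rpn10, Rpn1, Rpt1, Rpt6 and Prosbeta6. By chromosome, IDR peaks lay at 2 of 4 subunit genes on X (50%), against 49.2% of its protein-coding genes. They lay at 3 of 4 on 2L, against 39.5%, at 9 of 10 on 2R, against 45.1%, at 5 of 5 on 3L, against 43.9%, and at 6 of 9 on 3R, against 44.3%.

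**Figure D3:**
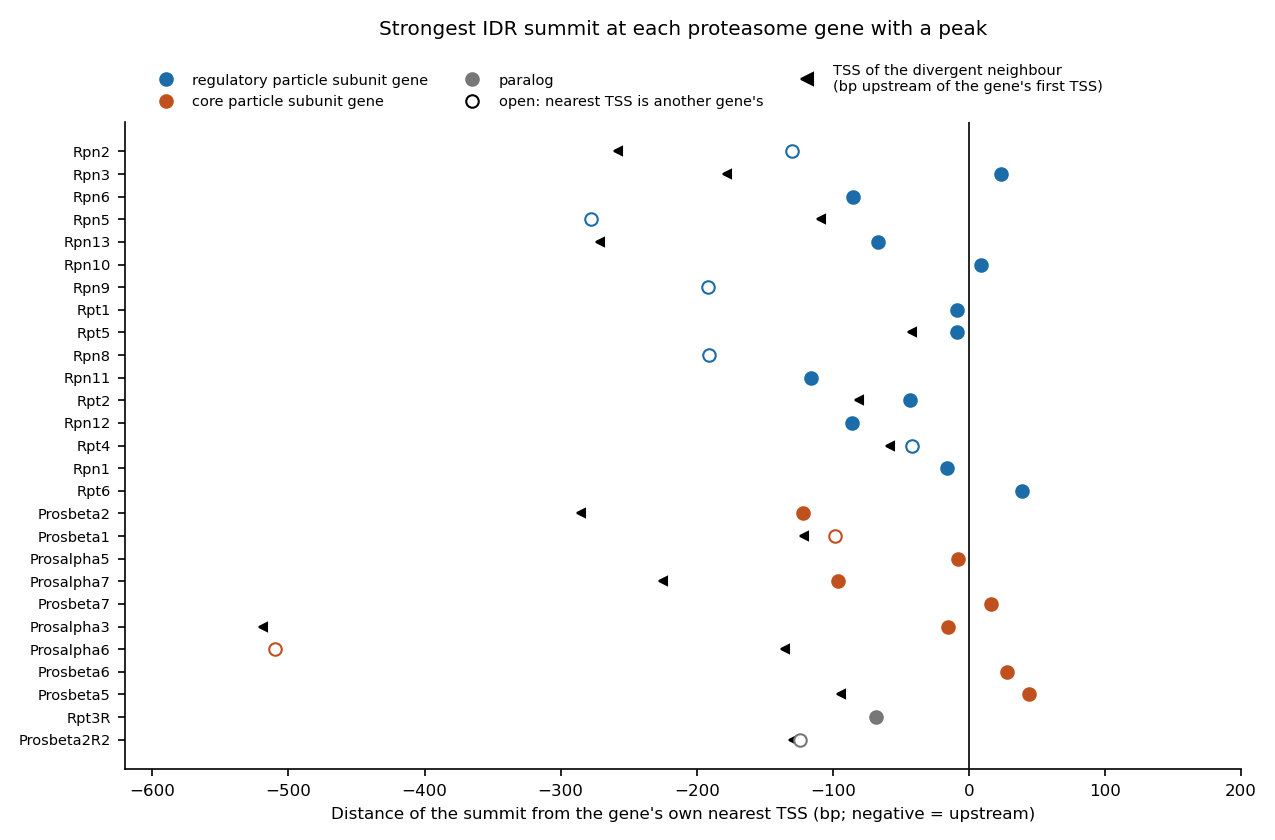
Distance in bp from the gene's own nearest TSS (x axis, upstream negative) to the strongest IDR summit at each of the 27 genes with a peak, with regulatory particle genes at the top, then core particle genes and paralogs, each by rank. Open circles mark summits whose nearest TSS belongs to another gene, and triangles mark the TSS of a divergent neighbour, measured from the gene's first TSS. Of the 27 summits, 25 lie within 250 bp of the gene's own TSS, Rpn5 lies at -278 bp and Prosalpha6 at -510 bp.

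Promoter sequences were searched for 11 motifs on both strands, from 250 bp upstream to 50 bp downstream of the first TSS. The DRE (TATCGATA) was in 12 of 32 subunit promoters (37.5%, 21.1% to 56.3%) and 0 of 16 paralog promoters (upper limit 20.6%), against 9.36% of all protein-coding promoters. It was found in both particles, at 6 of 18 regulatory and 6 of 14 core subunit genes. The core of Ohler motif 7 (CATCNCT) was in 6 of 18 regulatory promoters (33.3%, 13.3% to 59%) and 0 of 14 core promoters (upper limit 23.2%), against 14.5%. The core of Ohler motif 1 (GGTCACAC) was in 15.6% of subunit and 0% of paralog promoters, against 7.7%. The GAGA motif (GAGAG) went the other way, with 9.38% of subunit promoters and 37.5% of paralog promoters, against 29.8%, and Ohler motif 5 (CAGCTG) was in 3.12% of subunit promoters, against 17.7%.

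For the other motifs, the TATA box (TATAAA) was in 40.6% of subunit promoters, against 45.9%, and the core of the Initiator (TCAGT) in 56.2%, against 51.6%. The TAA repeat (TAATAA) was in 31.2%, against 37.2%. By particle, it was in 3 of 18 regulatory promoters (16.7%, 3.58% to 41.4%) and 7 of 14 core promoters (50%, 23% to 77%). This split runs opposite to that of Ohler motif 7. For both motifs, the interval of each particle includes the share of all protein-coding promoters. The core of the site of Cnc and small Maf proteins (TGACNNNGC) was in 15.6%, against 8.63%. The E-box (CACGTG) and the core of the downstream promoter element (AGACGT) were in 0 of 32 subunit promoters, against 4.23% and 5.44%. A match of letters is a description and not a binding site.

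**Figure D4:**
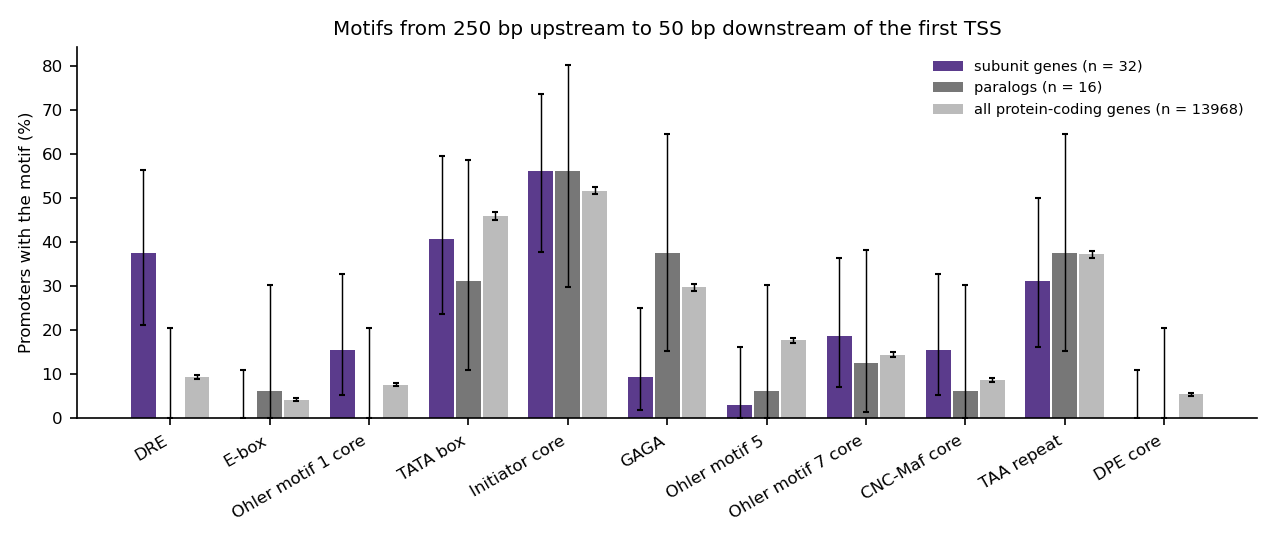
Share of promoters (%, y axis) that contain each of 11 motifs on either strand, for subunit genes (n = 32), paralogs (n = 16) and all protein-coding genes (n = 13968), with exact 95% confidence intervals as error bars. The DRE stands at 37.5% in subunit genes and 0% in paralogs, against 9.36% in all protein-coding genes.

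Within 50 bp of the summit, the DRE was found at 3 of 25 subunit genes (12%, 2.55% to 31.2%), against 4.41% of all IDR peaks. These 3 genes were Prosalpha5, Prosbeta1 and Rpt5, where the DRE was centred 8, 20 and 33 bp from the summit. Within 100 bp, it was found at 6 of 25 (24%, 9.36% to 45.1%), against 7.74% of all IDR peaks, and these were 2 of 16 regulatory and 4 of 9 core subunit genes. Of the 2 paralogs with an IDR peak, Rpt3R had a DRE within 50 bp of its summit, though none in its promoter window, and Prosbeta2R2 had none in either. At Prosbeta2, printed above, the 2 DREs lay 134 and 116 bp to either side of it. Among the 7 subunit genes without an IDR peak, Rpn7 had a DRE in its promoter, centred 6 bp downstream of the TSS. The Initiator core was the most frequent motif at the summits, at 9 of 25 (36%, 18% to 57.5%), against 18.9% of all IDR peaks. The TAA repeat was found at 2 of 25 (8%, 0.984% to 26%), against 14.8%.

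Genes that act with the proteasome were examined as a list of 29 symbols outside the family, of which 25 matched the annotation. An IDR peak lay at 21 of these 25 genes and a peak in all 3 whole lists at 24, against 44.2% and 60% of protein-coding genes. All 5 listed regulators of proteasome genes had an IDR peak. The strongest was at cnc, which encodes the factor known in flies to activate proteasome genes, with signal 1114 and rank 304, and ranks of 323, 307 and 318 in replicates 1, 2 and 3. Keap1, which encodes the inhibitor of that factor, had signal 791 and rank 605, with ranks of 471, 789 and 615, although its summit lay 868 bp upstream and nearest to kuk. Both peaks were stronger than those of all 27 proteasome genes with an IDR peak. The other regulators stood lower, with Pngl, which encodes a deglycosylase, at rank 4307, sip3, which encodes a ubiquitin ligase of the endoplasmic reticulum, at 4696, and maf-S, which encodes the partner of the cnc product, at 5427. The summit of sip3 lay 302 bp upstream of its TSS and nearest to a TSS of betaGlu.

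IDR peaks also lay at all 5 genes for ubiquitin and its activating enzyme, from RpS27A (rank 1812) to Uba1 (rank 3499). They lay at all 3 genes for ubiquitin shuttles, Rad23 (rank 1654), rngo (rank 2045) and Ubqn (rank 3076). The summit of Ubqn lay 394 bp upstream of its TSS and nearest to a TSS of dome, and in the top list of only 1 replicate. The 4 genes for the segregase that extracts ubiquitin-tagged proteins had ranks of 1301 (TER94, its ATPase), 1411 (p47), 1996 (Ufd1) and 4503 (Npl4). The genes listed as assembly and associated factors were mixed, with an IDR peak at 4 of 8. This heading is that of the list and does not settle which of them encode subunits. Uch-L5, which encodes a deubiquitinase bound through Rpn13, had rank 1063, ntc 1985, REG, which encodes another cap of the core, 4004, and Pomp, which encodes a chaperone of core assembly, 4032. The summit of Uch-L5 lay 66 bp upstream of its TSS but nearer to a TSS of Jarid2. That of REG lay 1939 bp downstream of its TSS. Sem1, PI31, Usp14 and PSMG1 had no IDR peak. The first 3 had a weaker peak in each whole replicate list, and PSMG1 in those of replicates 1 and 2.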

How the data were processed

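ChIP-seq peak lists of 3 biological replicates in 1 group were analysed, with the replicate numbers that the labels give. Chromatin, per the labels, was sheared by sonication, and the files use dm6. Per the deposited file listings, each replicate list was called with 1 control library (not used here). Which aligner and which peak caller were run, and at which IDR threshold, is not given in the sources used here. For each peak, the authors deposited a signal value, which can be compared within a list alone. Deposited −log10 q values were left aside, because many peaks share 1 value. Summit offsets deposited by the authors gave each summit, and in 1 to 6 rows of a list it lay outside its peak; these rows were kept. The 6896 IDR peaks are, unchanged, the 6896 strongest pooled peaks. No row was identical between replicate lists (0 rows).

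Genes and TSSs came from Ensembl release 115 and sequence from RefSeq, both of the dm6 assembly. Positions are 1-based. The background was all 13968 protein-coding genes on X, 2L, 2R, 3L, 3R, 4 and Y (shares of it are given as the comparison). Shares have exact (Clopper-Pearson) intervals at 95%. The only tests are exact two-sided sign-flip permutations over the 3 replicates. The labels call the replicates biological without naming separate cultures, so their spread describes these samples only. The members, sub-lists, motifs and the list of 29 further genes were chosen with earlier results of these data known. Full values are given for the 5 strongest regulatory and 5 strongest core genes, subunit genes without an IDR peak and paralogs with one. Of the 29 symbols, 2 were matched through RefSeq synonyms and 4 were unmatched. The assignment of peaks to genes was tested on simulated data, in which all 200 placed summits were recovered. Alternatives were other gene windows, the strongest 3448 IDR peaks, the pooled list, each replicate left out, 100 bp to either side of summits for motifs and, added after seeing the data, particles without paralogs. Python 3.11.15, numpy 2.4.6, scipy 1.17.1 and matplotlib 3.10.9 were used.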

Additional observations from a re-analysis of the deposited data

How the results depend on the processing

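With gene bodies only, without the 1 kb upstream, an IDR peak lay at 11 of the 48 genes (22.9%), against 2931 protein-coding genes (21%), so the family was near the background there. These were 10 subunit genes and 1 paralog, 8 regulatory and 3 core genes, with 7 regulatory and 3 core genes among the subunit genes (31.2% of subunit genes). The strongest 3448 IDR peaks left 5 core genes, all 5 of them subunit genes, and 0 paralogs, against 3730 protein-coding genes (26.7%). The nearest-TSS rule left 1 paralog. The whole pooled list gave 9363 protein-coding genes (67%). Leaving out each replicate, that is, counting IDR peaks whose summit lay in the top lists of both others, gave 21 to 24 of the 48 genes, 21 to 24 subunit genes, 14 to 16 regulatory and 7 to 8 core subunit genes, and 0 to 1 paralogs, against 32.6% to 35% of protein-coding genes. This filters an IDR list that still drew on every replicate, so no gene could be gained. Of the 12 genes named for their IDR peak, Rpn2, Rpn5, Prosbeta1 and Prosbeta2R2 lost it under the nearest-TSS rule, Prosalpha5 and Rpt3R without replicate 2 or 3, and Prosbeta2R2 whichever replicate was left out. The differences between shares were recomputed with whole replicate lists, top lists of 3448 peaks, summits within 250 bp of a TSS and each replicate left out, and no mean changed sign. They were 25.9 to 37.9 points for regulatory minus core genes, 7.14 to 38.9 for the subunit genes of the particles and 55.2 to 84.4 for subunit minus paralog genes. All of these count Prosalpha1, whose sequence is repeated elsewhere, as a gene without a peak. The median strength of the peaks (66.9% of the IDR list weaker) was 64.3% to 65.6%. With 1 group no pairing between groups was possible, because no second group shares replicate numbers. The permutation tests pair the shares of the gene sets within each replicate. The depth of the libraries is unknown from peak lists, so a gene without a peak is not shown to lack signal.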
